A study of Mus musculus with 4 samples.

Results

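A set of transcripts stood far higher in control pool 2 than in the other control pools of a mouse embryonic heart study, and textbook transcripts of the pregnant uterus are among them. The members are array probes whose log2 ratio of mutant pool 2 over control pool 2 was -2 or lower, while the mean ratio of the other 3 arrays stayed between -1 and 1 and the control signal on array 2 was at least 200. Of 41174 probes, 300 met these limits, and 15 were set aside by name because they are Gja1, a gap junction protein, or carry names of collagen, matrix protease and adhesion gene families; 1 member kept under an older name in the files is now called Col6a4. The remaining 285 probes stand for 246 of 27670 genes or sequence names (0.889%). The members were chosen by the ratios of all 4 arrays and the control signal on array 2, so every value of the mutant over control comparison below is a description, and no test on it is used to support a result.

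The study compared the atrioventricular canal (AVC), the segment between embryonic atria and ventricles that forms the valve cushions, at e10.5, near the middle of mouse gestation. Mutant pools carried the Tbx3 mutation, which the series calls hypomorphic, and control pools were wild type; both were on a mixed background, 50% Sv129 and 50% C57Bl6. The labels give neither the structure of the allele nor the sex of the embryos. Each pool held micro-dissected tissue of 5 hearts, and each of 4 two-colour arrays set mutant pool RNA in Cy5 (red) against control pool RNA in Cy3 (green). All arrays ran the same dye orientation, on 1 slide read in 1 scan, so dye and genotype cannot be told apart. In pooled tissue, fewer cells of a type and less RNA per cell cannot be told apart either.

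In the pregnant mouse uterus, the stroma around the implanted embryo turns into decidua, a tissue of large secretory cells that depends on progesterone and on the homeobox genes Hoxa10 and Hoxa11. Uterine natural killer cells gather in the decidua and carry granules filled with granzymes, which are serine proteases, and with perforin. Trophoblast, the embryo's own side of the placenta, lies against the decidua and makes hormones of the prolactin family.

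A few probes show what was measured. The probes printed here are 60 bases long, and positions are those given in the files for build mm7. The Penk probe is shown because Penk, the precursor of the opioid peptides called enkephalins, has among the highest ratios between control pools. Its capitals mark a 15-base stretch, present in 2 copies, that encodes a repeated enkephalin peptide. The Gzmd and Gzme probes are shown because granzyme genes are near copies, and their capitals mark the 8 bases that differ within a 51-base overlap of the probes (43 identical bases, 84.3%). The probes of Gzma, Gzmc and Gzmf are shown beside them and carry no capitals.
Penk, chr4:4061458-4061517, minus strand: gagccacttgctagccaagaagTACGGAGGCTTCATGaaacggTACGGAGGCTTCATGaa
Gzmd, chr14:50998632-50998691, minus strand: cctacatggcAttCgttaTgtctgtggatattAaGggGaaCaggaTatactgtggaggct
Gzme, chr14:50986691-50986750, minus strand: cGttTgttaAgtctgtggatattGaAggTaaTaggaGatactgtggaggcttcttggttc
Gzma, chr13:110251676-110251735, minus strand: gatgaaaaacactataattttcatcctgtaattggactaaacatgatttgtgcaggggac
Gzmc, chr14:51099611-51099670, minus strand: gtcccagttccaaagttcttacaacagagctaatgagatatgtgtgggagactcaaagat
Gzmf, chr14:51073301-51073360, minus strand: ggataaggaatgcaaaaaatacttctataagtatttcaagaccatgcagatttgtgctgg

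Of the 28 pairs among the 8 granzyme member probes, the Gzmd and Gzme pair was the only 1 with at least 80% identity over an overlap of 30 bases or more. Signal from Gzmd and Gzme may therefore be shared between these probes. The median identity over all 28 pairs was 39.4%. Among the 9 probes for Klr receptors, 0 of 36 pairs reached 80%, and Klra7 and Klra15 came nearest at 78.6%. Probes were compared only with each other, and the pair of probes for Gzmd itself matched at 37.9%. Low identity between probes thus does not show whether near-copy genes share signal, which was not tested.

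Between 66.5% and 71.9% of all probes were well above background in each channel, so the pools did not differ much in detection. Before scaling, 75th percentiles of signal lay between 1695 and 2147 in mutant channels and between 1022 and 1119 in control channels. Tbx3, the mutated gene, had signals of 9501, 10748, 8855 and 8931 in mutant pools 1 to 4, against 12851, 13025, 12549 and 11428 in control pools 1 to 4. Its log2 ratios were -1.07, -1.12, -1.19 and -0.84 on arrays 1 to 4, lower in the mutant on each. Gja1, left out by name, had 4392, 1497, 5005 and 3258 in mutant pools, against 1914, 4620.3, 1961 and 1214 in control pools. Values below are signals with the local background subtracted unless another scale is named, and no spot of a member was saturated. Folds are on other scales: those between pools of 1 genotype use levels scaled to each channel's 75th percentile, against the mean log2 level of the other pools. Folds of control pool 2 over mutant pool 2 are median-centred array ratios, so they exceed the ratio of the printed signals. With a single control pool 2, no error can be given for its level; the 3 other control pools show the spread among controls.

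The members rested on 1 pool. On array 2 their ratios ran from -6.29 to -2.01, with quartiles at -3.62 and -2.41 and a median of -2.98. Their median ratios on arrays 1, 3 and 4 were -0.07, 0.19 and -0.11, close to the median of 0 of all probes. Members made up 1.74% of the summed signal of control pool 2, against 0.0746%, 0.0709% and 0.0702% in control pools 1, 3 and 4, and against 0.0636%, 0.127%, 0.0732% and 0.0549% in mutant pools 1 to 4. Turned to each other pool, the same limits kept 51, 32, 25 and 5 probes high in mutant pools 1 to 4, and 2, 1 and 0 high in control pools 1, 3 and 4. The next largest set was thus that of mutant pool 1.

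**Figure D1:**
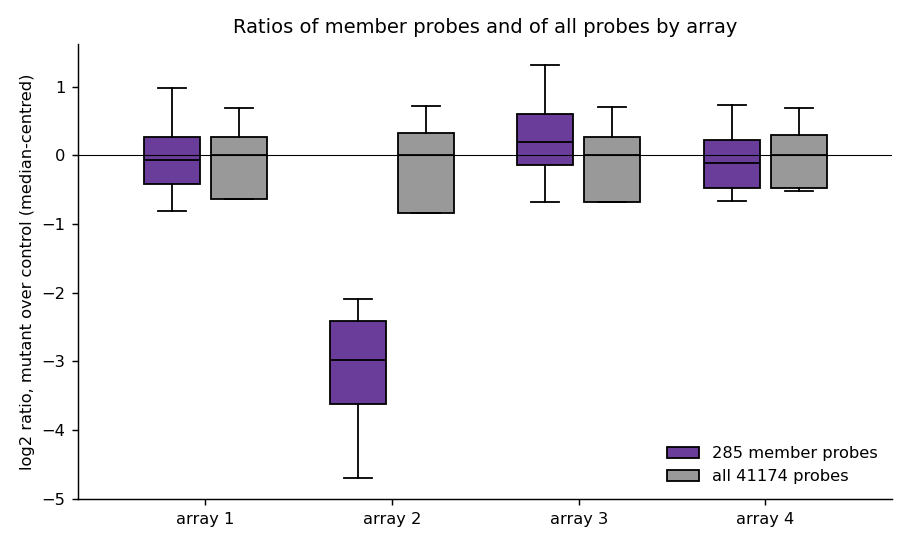
Log2 ratio of mutant over control (median-centred, y axis) on each array (x axis) for the 285 member probes and for all 41174 probes; boxes span the quartiles, lines mark medians and whiskers reach the 5th and 95th percentiles. The members sit at a median of -2.98 on array 2, where the rule chose them, and near 0 on arrays 1, 3 and 4.

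Among the controls, every member was higher in pool 2 than in each other pool. After scaling each channel to its 75th percentile, control pool 2 exceeded the mean of the other controls by a median of 17.2-fold, and the smallest excess was 1.64 on the log2 scale. An excess of at least 2 on that scale held for 278 of the 285 members and for 1.49% of all probes, a difference that the rule itself brings about. Of the members, 190 were well above background in all 4 control pools, 42 in pool 2 and in 1 or 2 others, and 53 in pool 2 alone among the controls. The levels in other control pools were thus low but mostly measurable.

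The 7 marker genes illustrate the pattern. Spp1, the secreted phosphoprotein osteopontin, which is made at high level in decidua and by macrophages, had signals of 557, 1027, 2444 and 414 in mutant pools 1 to 4, against 514, 44776, 337 and 131 in control pools 1 to 4. Its ratio on array 2, -6.29, was the lowest of all members. The probe lies at chr5:103631152-103631211. In control pool 2 it was 158-fold above the mean of the other controls, whereas mutant pool 2 lay within the range of the other mutant pools and mutant pool 3 was the highest of the mutants.

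Penk had signals of 265, 9999.9, 261 and 226 in mutant pools 1 to 4, against 150.3, 120652, 149 and 171 in control pools 1 to 4, at chr4:4060735-4060794. Pool 2 was thus the high pool in both genotypes, 34.1-fold above the other mutants and 771-fold above the other controls. The second Penk probe, printed above, read 12.1, 1011, 16.2 and 18.3 in mutant pools, against 10.2, 7361, 9.55 and 16.7 in control pools. It was not well above background in control pools 1, 3 and 4, so its excess in control pool 2 was at least 603-fold. Sfrp4, a secreted inhibitor of Wnt signalling found in decidual stroma, had 84.9, 1373, 231 and 69.5 in mutant pools, against 85.5, 20729.5, 79.5 and 57.0 in control pools. At chr13:18999998-19000057, it too was highest in pool 2 of each genotype.

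Gzmc, a granzyme of uterine natural killer cells, had 119, 721, 212 and 19.5 in mutant pools, against 94.5, 8874, 12.3 and 15.1 in control pools. Klrb1c, the NK1.1 surface receptor of natural killer cells, had 23, 68.6, 32.4 and 21.8 in mutant pools, against 13.5, 565, 20.5 and 20.2 in control pools. Klrb1c was not well above background in the other controls, and its level in control pool 2 was at least 31.9-fold higher. Esr1, the oestrogen receptor alpha, had 232, 407, 283 and 256 in mutant pools, against 260.2, 1907, 244 and 232 in control pools. By this probe Esr1 was therefore measured at a low level in all 8 pools and was 7.79-fold above the other controls in control pool 2. Dimmer second probes of Esr1 and Klrb1c were not kept by the rule. They had 35.0 and 25.1 in control pool 2, against 26.5 and 1.29 in mutant pool 2, at ratios of -1.25 and -1.50. Hoxa11, the homeobox regulator of uterine stroma, had 34.2, 529, 191 and 36.0 in mutant pools, against 56.5, 6350.5, 16.2 and 6.71 in control pools. Its probe, at chr6:52205477-52205536, was well above background in 1 of the 3 other control pools.

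**Figure D2:**
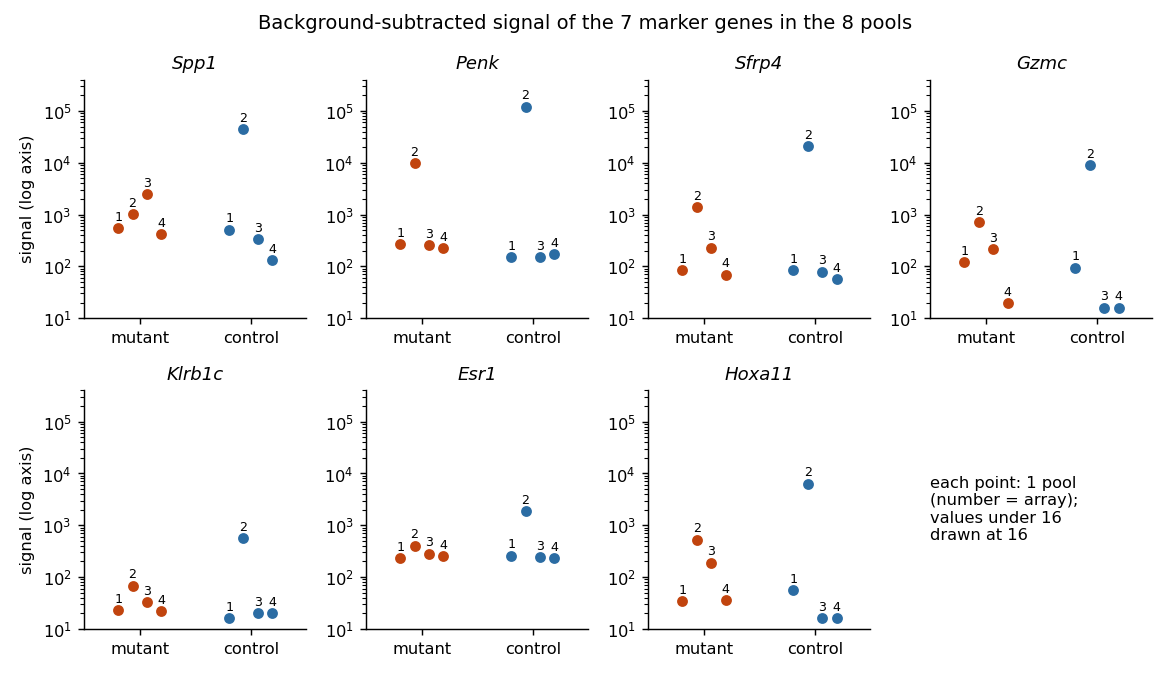
Background-subtracted signal (log axis) of the 7 marker genes in the 4 mutant and the 4 control pools; each point is 1 pool and carries the number of its array. Control pool 2 is the highest of the 8 pools for each gene; mutant pool 2 is the highest mutant pool for 6 of the 7, and mutant pool 3 for Spp1 (2444).

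The lowest ratios belonged to a mixed group of genes. Beside Spp1, Hoxa10 and Sfrp4, the 12 members with the lowest ratios on array 2 included Fads2b, a gene of the fatty acid desaturase family, at -6.01, Klra7 at -5.88, the interferon-induced Ifi202b at -5.44, the transcription cofactor Vgll3 at -5.35, Klra21 at -5.02, Mtarc1, a mitochondrial reductase, at -5.0 and the carboxypeptidase Cpa6 at -4.75. The sequences AK082585 and AK086389, at -5.81 and -5.03, have no gene name in the table used. Fads2b, Klra7, AK082585, Ifi202b, AK086389, Klra21, Klra8, Klra15 and 1600027J07Rik were not well above background in mutant pool 2, so their ratios there are bounds. By the median-centred ratio, control pool 2 was at least 64.4-fold above mutant pool 2 for Fads2b and at least 58.9-fold above it for Klra7. In all, 134 members had a ratio of -3 or lower, 50 of -4 or lower and 10 of -5 or lower.

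Just inside the ratio limit lay Tap2, Sphk1 and Ren1, each at -2.007. Just outside lay Tyrobp at -1.997, Lat2 at -1.984 and Bcl3 at -1.979. At the signal limit, Tmem30b (200.1), ENSMUST00000030808 (200.5) and 1600027J07Rik (203) were inside, and Hoxd8 (199), Ccl12 (198) and Clnk (197) outside. By the mean of the other arrays, Jhy (-0.99), Spp1 (0.95) and Nupr1 (0.93) were inside, while a second A2m probe (1.25), C3 (1.30) and H2-K1 (1.33) were outside.

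The members were sorted by 16 lists of genes for tissues the sample could hold; 57 of the 246 member genes stood in a list and 189 in none. A gene counts as low here when its ratio on array 2 was -1 or less, which held for 3.9% of all 27670 genes. Since the rule used that array, the counts describe what the members are and are not evidence for it. A probe at the signal floor of 16 in both channels reads -0.85 on array 2, so a list median near that value can come from genes below detection.

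Decidual stroma was the first group, with 11 members among 33 genes, 14 low and a list median of -0.81. The members were Alpl, Bmp8a, Dio3, Fst, Gatm, Htra3, Penk, Sfrp4, Spp1, Tdo2 and Wnt6, with ratios on array 2 from -6.29 to -2.09. Dio3, the deiodinase that inactivates thyroid hormone, had 132, 32327, 355 and 34.2 in mutant pools, against 118, 76389, 69.5 and 37.8 in control pools. It was 235-fold above the other mutants in mutant pool 2 and 1128-fold above the other controls in control pool 2, the largest excess of any member within either genotype. Tdo2, which degrades tryptophan, had 78.4, 614, 120.5 and 98.9 in mutant pools, against 84.3, 3977, 48.8 and 49.9 in control pools. Most listed genes were not low. Among them, Hand2, Bmp2 and Wnt4, which act in decidua and in embryonic heart alike, had ratios of 0.73, 0.73 and 0.46 on array 2. Igfbp1, Dkk1 and Igfbp4 had 1.09, 0.69 and 0.58. These genes are named after their values were seen, and why they did not follow the members was not tested.

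Of 24 genes for hormone receptors and regional patterning of the uterus, 5 were members: Esr1, Hoxa10, Hoxa11, Hoxd10 and Emx2, a homeobox gene of the urogenital tract. Hoxa10, the neighbour of Hoxa11, had 14.6, 128, 59.8 and 31.3 in mutant pools, against 22.1, 2792, 18.5 and 11.3 in control pools. Emx2 had 13.3, 90.9, 15.5 and 16.9 in mutant pools, against 5.97, 530.3, 7.60 and 12.7 in control pools, and was at least 48.6-fold higher in control pool 2 than in the other controls. The list as a whole had 8 low genes and a median of -0.43. Pgr, the progesterone receptor, missed the signal limit of 200 with 14.2 in mutant pool 2 and 118 in control pool 2, and lay under the floor of 16 in the other 6 pools; it is named after its values were seen. Posterior and limb tissue also makes Hox transcripts, and its part in these pools was not tested. Of 17 genes of limb, cloaca and posterior trunk, 9 were well above background on array 2 and 6 in no channel of any array. None of the 17 was a member or low, against 0.889% and 3.9% of all genes. A list this short is not set apart by such counts. The best measured of the 17, Tbx18 and Lhx9, had ratios of 0.31 and 0.39 on array 2.

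Natural killer cells gave the fullest list. Of 36 genes, 15 were members and 31 were low, with a list median of -2.71 on array 2, against -0.57, -0.36 and -0.48 on arrays 1, 3 and 4, where a probe at the floor in both channels reads -0.63, -0.69 and -0.48. The summed signal of the list was 1112, 9734, 1561 and 570.4 in mutant pools 1 to 4, against 813, 55282, 495 and 577 in control pools 1 to 4. Both pools of array 2 thus stood above all others, control pool 2 most.

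All 7 granzyme member genes followed this order. Gzmb, which cuts caspases in target cells, had 49.9, 1596, 54.9 and 2.38 in mutant pools, against 20.8, 8033, 5.02 and 13 in control pools. Gzmd had 99.8, 1746, 186 and 15.4 in mutant pools, against 86.4, 8973, 24.5 and 13.9 in control pools by its brighter probe. Gzmf had 83.1, 1051, 199 and -0.19 in mutant pools, against 114, 8133, 14.0 and 9.53 in control pools. In each genotype pool 2 was the highest and no granzyme probe was well above background in pool 4, while most granzyme probes were also well above background in mutant pools 1 and 3 and in control pool 1 (7, 8 and 7 of 8 probes).

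Gzma, the tryptase of cytotoxic granules, had 36.0, 567, 44.4 and 4.76 in mutant pools, against 23.9, 4905, 7.78 and 6.08 in control pools. Gzme and Gzmg had 376 and 681 in mutant pool 2, against 1525 and 1790.5 in control pool 2. By the median-centred ratio, the fold of control pool 2 over mutant pool 2 differed among the granzymes, from 4.73 for Gzmg to 22.1 for Gzmc. Prf1, the pore-forming perforin, had 472 in mutant pool 2 against 2624 in control pool 2, and no other pool passed 33.5. Il2rb, a receptor chain for interleukins 2 and 15, and Nkg7, a granule protein, had 529 and 358 in mutant pool 2, against 3700.2 and 1170.3 in control pool 2.

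The 9 Klr member genes encode lectin-like receptors of natural killer cells. They were Klra7, Klra8, Klra15, Klra16, Klra21 and Klra23 of the Ly49 family, with Klrb1c, Klrd1 and Klrg1. Their summed signal was 156, 880, 205 and 147 in mutant pools, against 108, 5124, 96.9 and 111 in control pools. Klrg1 differed from the rest in how strongly mutant pool 2 stood out, with 15.6, 617, 30.6 and 11.5 in mutant pools, against 19.6, 1473, 6.08 and 13 in control pools. Klrd1, in contrast, had 30.8, 32.0, 12.4 and 14.6 in mutant pools, against 6.95, 474, 14.5 and 8.17 in control pools. Their genes lie close together: 11 member genes sat at chr6:128801824-130437369, among them Klrb1c, Klrd1, 6 Klra genes and the lectin receptors Clec1a, Clec7a and Olr1. A further 7, the protease Ctsg and 6 granzymes, sat at chr14:50967311-51126491, where a cluster means at least 3 member genes with gaps of at most 1000000 bases.

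**Figure D3:**
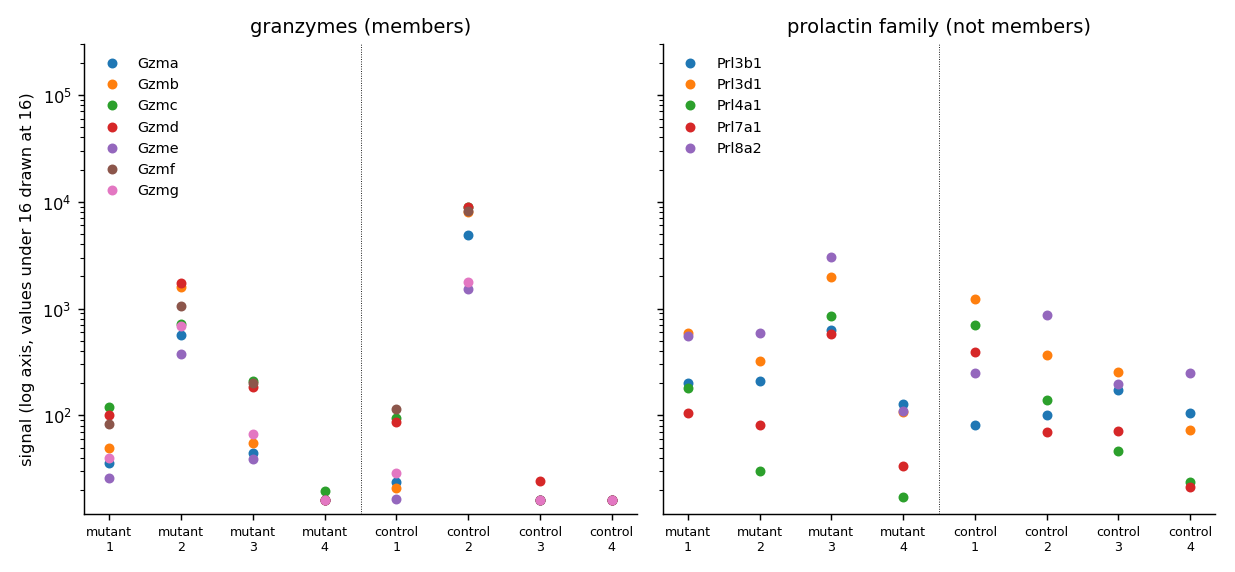
Signal (log axis) in the 4 mutant pools, left, and the 4 control pools, right, of the 7 granzyme members and of 5 prolactin-family genes that are not members; each point is 1 gene in 1 pool. Granzymes peak in pool 2 of both genotypes, whereas the prolactin-family genes are highest in mutant pool 3 among the mutants (Prl8a2 at 3057); among the controls Prl3d1 is highest in pool 1 (1239.6) and Prl8a2 in pool 2 (876).

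Trophoblast genes gave no members. Of all genes, 0.889% were members and 3.9% were low. A lack of members in a list this short therefore does not set it apart. Of 30 listed trophoblast and placenta genes, 15 were well above background on array 2 and 4 were low, namely Prl4a1 at -3.04, Tpbpa at -2.10, Prl7d1 at -1.94 and Prl3d1 at -1.01, and none of 22 genes of the prolactin family on the array was a member. The 2 listed genes with the highest signal in control pool 2, Hand1 and Pcdh12, had ratios of 0.34 and -0.10 on array 2. Both were well above background in all 4 pools of each genotype, and which tissue gave their signal was not tested. Prl3d1, placental lactogen 1 of trophoblast giant cells, had 593, 326, 1954 and 108 in mutant pools, against 1239.6, 365, 252 and 73.5 in control pools. Prl4a1 had 181, 30.3, 855 and 17.1 in mutant pools, against 702, 139, 46.4 and 23.8 in control pools. Prl8a2, a prolactin-family hormone of the decidua itself, had 553, 586, 3057 and 111 in mutant pools, against 251, 876, 197 and 248 in control pools. These genes are named after their values were seen; all 3 were highest in mutant pool 3 among the mutants, while among the controls Prl3d1 and Prl4a1 were highest in pool 1 and Prl8a2 in pool 2.

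Leukocyte genes moved with the members in part. Of 32 genes of macrophages and other leukocytes, 4 were members and 20 were low, with a median of -1.34. Ly6c1, a surface antigen of leukocytes and of endothelium, had 152, 6484, 422 and 77.0 in mutant pools, against 124, 32932, 101 and 64.8 in control pools. Ptprc, the CD45 antigen of all white blood cells, had 316, 242, 222 and 202 in mutant pools, against 146, 1922, 131 and 137 in control pools. Cd52 and Ms4a7 were the others. Ptprc was thus high in control pool 2 alone, and Ly6c1 in both pools of array 2.

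Of 20 antigen presentation genes, 4 were members and 15 were low, with a median of -1.55. The members were the immunoproteasome subunits Psmb8 and Psmb9, the peptide transporter Tap2 and H2-DMb1. Psmb8 had 206, 760.4, 174 and 160.0 in mutant pools, against 86.3, 2613, 100.5 and 97.8 in control pools. With C2, C4b and Cfb they form a cluster of 7 member genes in the major histocompatibility region, chr17:32236685-32959480.

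Complement and acute-phase genes had 9 members among 22, 14 low and a median of -1.82. The members included A2m, C1ra, C1s1, C2, C4b, Cd55, Cfb and Serping1, a mix of proteases of the cascade and of its inhibitors. C2 had 137, 487, 151 and 123 in mutant pools, against 59.1, 3291, 63.6 and 71.1 in control pools. Serping1, the inhibitor of C1, had 688, 2242, 740.3 and 514 in mutant pools, against 520.0, 5069, 396 and 376 in control pools. C1ra had 261 in mutant pool 2 against 2929 in control pool 2, 20.2-fold higher in control pool 2 by the median-centred ratio.

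The stromal group had 6 members among 23 fibroblast genes: Dcn, Dpt, Lum, Mfap5, Ogn and Thy1. Dcn, the collagen-binding proteoglycan decorin, had 5088, 6673, 7301 and 6215 in mutant pools, against 3167, 29229, 2278 and 2258 in control pools. Dcn was well measured in all pools, and mutant pool 2 lay within the range of the mutants. Ogn, a related proteoglycan, had 70.5, 299.5, 67.2 and 51.3 in mutant pools, against 71.7, 2634, 42.5 and 55.4 in control pools. Lum, lumican, and Thy1, a stromal surface antigen, had ratios of -2.72 and -2.40 on array 2. The list median was -0.79, with 10 low genes.

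Of 22 uterine epithelium genes, 2 were members and 8 were low, with a list median of -0.76. The members were Ltf, lactotransferrin, and the adhesion protein Cdh1, and Sprr2f (-2.52), Epcam (-1.63) and Prss29 (-1.63), named after their values were seen, were among the other low genes. Most of the list was not low. Sprr2a1, the brightest listed gene in control pool 2 at 43695, had a ratio of 0.66, and Calca and Sprr2b had 0.81 and 0.42, also named after their values were seen. Ltf reached 93.4 in mutant pool 2 and 384 in control pool 2. Cdh1 had 44.5, 114, 108 and 109.9 in mutant pools, against 67.5, 366, 25.5 and 23.9 in control pools. Of 14 smooth muscle genes, Myh11, smooth muscle myosin, was the only member, at 345, 638, 209 and 153 in mutant pools, against 254, 1840.2, 149 and 150.3 in control pools. The smooth muscle list had a median of 0.10, and the sign of that median turned under other processing.

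Lists of the dissected tissue itself held no member. Members made up 0.889% of all genes, so their absence from the short lists named here does not set a list apart. The 24 embryonic heart muscle genes had a median ratio of 0.75 on array 2, against 0.43, 0.70 and 0.81 on arrays 1, 3 and 4, and none was low. Myh7, slow myosin, had 488126, 424160.0, 407909 and 380566 in mutant pools, against 78547, 80632, 66729.7 and 78620.4 in control pools, and Myl4 had a ratio of 1.57 on array 2. The 20 canal and cushion genes had a median of 0.33, and 3 were low, including Postn, a cushion matrix protein, at -1.46, and Tbx3. The summed signal of the heart muscle list was 676537 in control pool 2, the lowest of the controls, against 907245, 739110 and 780580 in control pools 1, 3 and 4, so markers of the labelled tissue were present in that pool. Globins and erythroid genes (12) and yolk sac endoderm and liver genes (21) had 0 members; Hbb-bh1 and Hbb-y had ratios of 1.74 and 1.98 on array 2, and Cited1 and Afp -0.18 and 1.99.

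Sex-linked genes were checked because the uterus is a maternal tissue. The labels do not give the sex of the embryos, so female embryos and maternal tissue cannot be told apart by these genes. Xist, the transcript of the inactive X chromosome, had 13505, 13645, 4490.4 and 8575 in mutant pools, against 2544, 3597, 2458 and 1676 in control pools by its brightest probe. Among the controls pool 2 was the highest for Xist, and among the mutants pools 1 and 2 were the highest. Eif2s3y on the Y chromosome had 3613, 4018, 8513 and 2389.7 in mutant pools, against 3253, 3154, 3094 and 2948 in control pools, so control pool 2 lay within the range of the other controls. The 6 sex-linked genes include 0 members, which at 0.889% of all genes does not set so short a list apart. Of the 16 lists, those of natural killer cells, complement, antigen presentation, leukocytes, decidual stroma, fibroblasts, uterine epithelium and hormone receptors each had at least 8 low genes on array 2, and their part in the result was not tested.

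**Figure D4:**
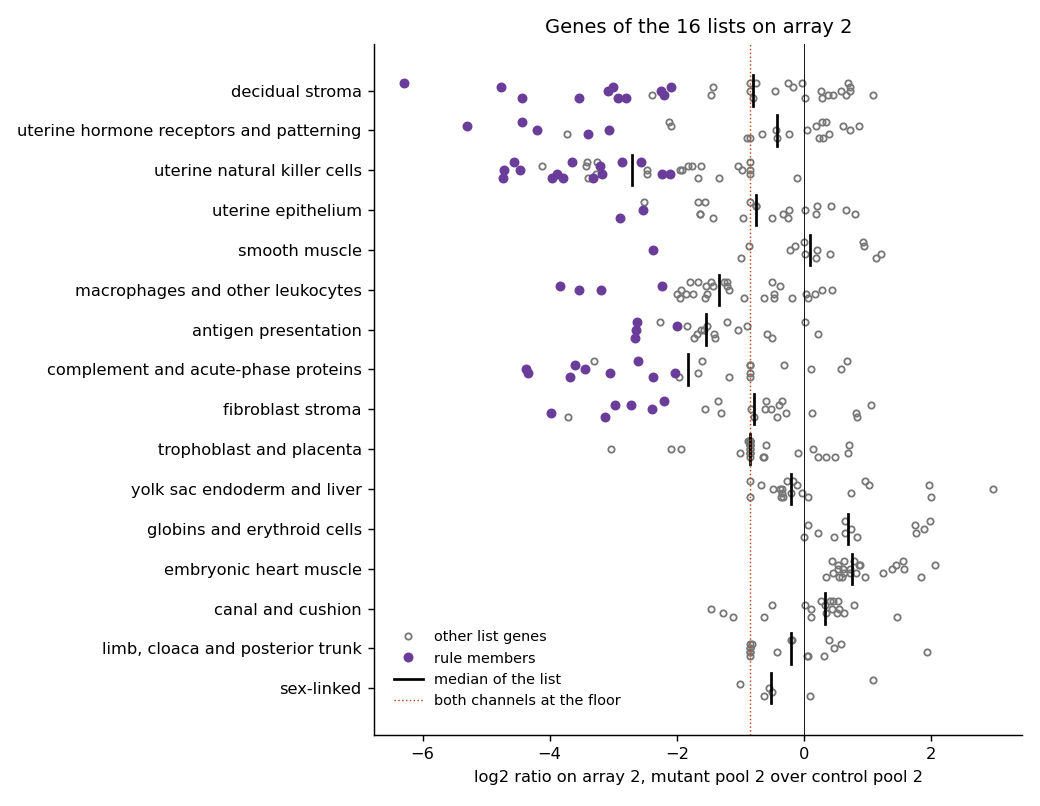
Log2 ratio on array 2 (x axis) of each measured gene in the 16 lists (rows); filled points are rule members, open points the other genes of a list, short bars the list medians, and the dotted line the value of a probe at the floor in both channels (-0.85). Members stand in 9 of the lists, and the natural killer cell list has the lowest median (-2.71).

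Beyond these lists, 21 member genes are known to be induced by interferon; they were grouped after their values were seen. Their 26 probes had ratios from -5.44 to -2.01 on array 2, with a median of -2.66. Ifi27 had 121, 1038, 249 and 89.8 in mutant pools, against 61.5, 7638, 64.4 and 62.4 in control pools. Ifit1 had 22.3, 25.2, 30.1 and 12.6 in mutant pools, against 7.03, 365, 14.7 and 12.7 in control pools. By these probes Ifi27 was raised in pool 2 of both genotypes and Ifit1 in control pool 2 alone. Another Ifi27 probe, which the rule did not keep, had 1414 in mutant pool 2 against 2254 in control pool 2, a ratio of -1.52. Promoter stretches of 3 of these genes are printed because they share a known element. Promoter windows from 250 bases before to 50 after the gene start were available for 161 member genes in RefSeq's table for build GRCm38.p6. The core of the interferon-stimulated response element, GAAA followed after any 2 bases by GAAA, on either strand, stood in 20 of these 161 (12.4%) and in 3.99% of all 27025 genes with a window. The longer form, the same core followed at once by CT, contains that core and stood in 6 (3.73%) member genes, Cxcl10, Gbp3, Gzma, Ifit1, Phf11a and Trim30a, and in 0.303% of all genes. In the stretches below the capitals mark the longer form, which starts 213, 106 and 38 bases before the gene start.
Cxcl10, chr5:92349051-92349139, minus strand: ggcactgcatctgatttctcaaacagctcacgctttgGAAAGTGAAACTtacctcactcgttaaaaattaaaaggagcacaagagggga
Ifit1, chr19:34640743-34640834, plus strand: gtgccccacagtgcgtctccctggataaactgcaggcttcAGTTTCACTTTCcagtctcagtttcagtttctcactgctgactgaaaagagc
Trim30a, chr7:104465194-104465271, minus strand: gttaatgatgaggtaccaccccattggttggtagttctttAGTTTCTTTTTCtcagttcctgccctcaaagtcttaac

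Other motifs were searched in the same windows on either strand. The STAT site TTCNNNGAA stood in 23 member genes (14.3%) and in 9.55% of all genes, and the T-box site TCACACCT in 2 (1.24%) and in 1.48%. Full response elements of the oestrogen receptor (GGTCA and TGACC with any 3 bases between) and of the progesterone receptor (AGAACA and TGTTCT, likewise spaced) stood in 0 member genes and in 0.0740% and 0.0111% of all genes, so the letters are rare in such windows. A match describes letters, not binding, and neighbouring gene copies can share them.

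A second group put together after its values were seen holds 14 enzyme genes of hormone, amine and alcohol metabolism. Akr1c18, which inactivates progesterone, had 50.6, 519.5, 422 and 52.3 in mutant pools, against 55.3, 3929, 50.8 and 20.8 in control pools. Ren1, renin, had 29.7, 612, 23.5 and 27.1 in mutant pools, against 24.5, 1751, 25.3 and 30.5 in control pools by its brighter probe. Akr1c18 was thus raised in mutant pools 2 and 3 and in control pool 2, and Ren1 in the 2 pools of array 2. Of all members, the one brightest in control pool 2 was Ctla2a, also named after its values were seen, an inhibitor of cysteine proteases. It had 17161, 18422, 11274 and 7824 in mutant pools, against 4501, 209737, 4661 and 3989 in control pools.

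The mutant signals entered the ratios that chose the members, so the values of mutant pool 2 that follow are a description. Mutant pool 2 exceeded the mean of the other mutants by a median of 1.72-fold in the members (0.78 on the log2 scale), against a median of 0 on that scale in all probes. An excess of at least 1 on the log2 scale was found for 115 of 285 members (40.4%), against 1.12% of all probes. Mutant pool 2 was above each of the other mutant pools for 198 members (69.5%), against 22.7% of all probes. Both pools of array 2 were read on the same array. Among genes named after their values were seen, Dio3 (235-fold), the surface antigen Ly6a (47.9-fold) and Penk (34.1-fold) stood out in mutant pool 2, whereas Spp1 (1.06-fold), Vgll3 (0.97-fold) and Ptprc (0.85-fold) did not.

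The ratios of the other arrays entered the rule through their mean, and their spread is described here. On array 3, 32 members (11.2%) had a ratio of 1 or more, against 1.98% of all probes. They included Gzmc at 3.04, Gzmf at 2.95, Hoxa11 at 2.87, Akr1c18 at 2.37 and Spp1 at 2.17, whereas Penk stood at 0.12. On arrays 1 and 4 the counts were 15 (5.26%) and 7 (2.46%), against 1.95% and 1.35% of all probes. Ratios of -1 or less were held by 7, 1 and 8 members on arrays 1, 3 and 4 (2.46%, 0.351% and 2.81%), against 0.461%, 0.457% and 0.670% of all probes, so members spread to both sides on arrays 1 and 4.

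**Figure D5:**
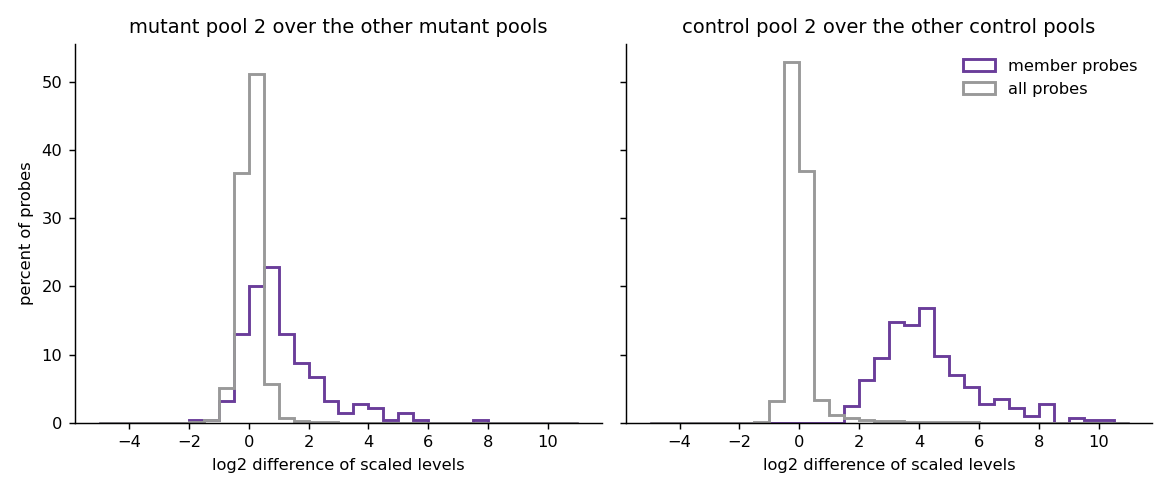
Distribution of the log2 difference between scaled levels of pool 2 and the mean of the other pools of its genotype (x axis), as percent of probes (y axis), for mutant pools, left, and control pools, right. Members are shifted up in both panels, by a median of 0.78 in mutant pool 2 and of 4.10 in control pool 2, where the rule chose them.

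Probes that the rule did not keep gave a further view of the same genes. The 67 member genes with other probes had 97 of these, of which 58 were well above background in control pool 2. Among those 58, 54 had a ratio below 0 on array 2 and 48 (82.8%) had a ratio of -1 or less, against 4.68% of all probes well above background in that channel. Their median was -1.59, against 0.19 for all such probes. These probes measure the same RNA on the same array as the members and are not separate samples.

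In the limma fit of all 4 arrays, 1 of 19091 genes (0.00524%) passed an adjusted p of 0.05, Tbx3, at a log2 ratio of -1.35 (limma, adjusted p = 0.0454). Of 215 member genes in that fit, 0 passed by limma, and 3 had an unadjusted p under 0.05, against 14.6% of all genes. Fitted without array 2, 193 genes (1.01%) passed, among them 2 members, Galnt15, an enzyme of protein glycosylation, and the sequence TC1413911 (limma, adjusted p = 0.0470 and 0.0483). The rule used these ratios, so nothing is read from the members' counts.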

How the data were processed

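RNA of 8 pools was amplified, labelled and hybridised to 4 two-colour Agilent arrays. Spot intensity was extracted by the authors with Agilent Feature Extraction 9.5.1, per the submitters' processing notes; the deposited series table holds log10 ratios that matched those of the scanner files. Each deposited intensity is a mean signal, from which the local median background was subtracted. Signals were floored at 16, control spots left out, spots of a probe averaged, and log2 ratios centred on each array's median. The chosen members and the gene lists were fixed with earlier results of these data known. Genes were named through accessions or symbols, otherwise as in the files (18 of 285 member probes). Named genes were the 7 markers, the 12 lowest ratios, up to 4 members per list by control pool 2 signal or 2 other genes where a list had none, threshold neighbours, granzyme and Klr members, Gja1, Tbx3 and Xist. A bound sets the bright channel against the higher of the dim probe's own signal and the lowest signal well above background in its channel. limma (normexp with offset 50, loess, eBayes, Benjamini-Hochberg) used 19091 genes and was tested on simulated data. The labels call the pools biological replicates; 4 arrays limit precision. Alternatives changed the floor, signals, normalization, limits and arrays. Python 3.11.15, pandas 2.3.3 and numpy 2.4.6 were used. 1 gene that the naming rule covers is not reported here.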

Additional observations from a re-analysis of the deposited data

Results flagged for a closer look

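For 9 of 25 values, 1 array stood apart from the other 3 by a gap larger than Dixon's critical value for 4 samples. Chance alone passes it in about 1 in 20 groups of values that were not chosen by their ratios. The members and Gja1 met limits on array 2, so that rate does not apply to them or to lists that hold members. Among genes, the gap as a share of the whole range was 0.943 for Penk, 0.912 for Klrb1c, 0.834 for Esr1 and 0.89 for Gja1, each from array 2, which the rule used. The natural killer cell list (0.909, median -2.71 on array 2), the complement list (0.885, -1.82), the leukocyte list (0.877, -1.34) and the fibroblast list (0.838, -0.79) also stood apart on array 2. The smooth muscle list differed in that array 1 stood apart, with a gap share of 0.877 and a median of 0.52. Over all members, 136 of 285 probes passed the same limit. The rule chose them for a low ratio on array 2, so this count is a description. The share of all probes past the limit was not counted.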

How the results depend on the processing

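The choice of 285 probes held within 1.5 times under the settings tried, except that a ratio limit of -3 left 134. The members' median on array 2 became -2.61 with a floor of 64 and -2.59 after loess. The mutant pool 2 count of 198 stayed between 152 and 200 under settings chosen after seeing the data. List medians on array 2 are given in the order processed signals, loess and floor of 64 (the last chosen after seeing the data). They were -0.63, -0.43 and -0.58 for decidual stroma, -0.95, -0.99 and -0.52 for fibroblasts, 0.36, 0.38 and 1.02 for heart muscle, 0.16, 0.075 and 0.6 for the canal, and 0, 0.044 and -0.58 for limb and trunk. With processed signals and loess they were -0.019 and -0.22 for hormone receptors, -0.27 and -0.21 for uterine epithelium, and 0 and -0.075 for trophoblast. With loess and the floor of 64 they were -1.81 and -1.75 for natural killer cells, and -0.21 and 0.36 for smooth muscle. Leukocytes had -1.48 with processed signals and -0.97 with the higher floor, which gave -1.16 for antigen presentation and -1.52 for complement. The limma count of 1 became 0 without background subtraction, 7772 with median centring (7202 higher, 570 lower; the median of all genes moved to 0.23), 3 with the series table's ratios, 0 with the mean over a gene's probes and 1574 with array weights. Leaving out 1 array gave 0 to 193 genes, with 193 without array 2 and 0 without array 1, 3 or 4. Of 215 members tested, 3 were called with median centring, against 7772 of all 19091 genes. With array weights 1 of the 215 was called, against 1574 of 19091. Leaving out 1 array called 0 to 2 of the 215, against 0 to 193 of 19091. The cause was not tested. Each array is the ratio of same-numbered pools, so the limma fit of these ratios is already paired and no separate paired analysis was run. Signals near background limit the dim members.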
